A study of Mus musculus with 6 samples.

Results

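Expression of 10 WNT pathway genes was followed in mouse granulosa cells, which nurse the oocyte inside the follicle and produce ovarian steroids. The genes were a ligand (Wnt4), a secreted inhibitor (Sfrp4), 3 Frizzled receptors (Fzd1, Fzd4 and Fzd7), the co-receptors Lrp5 and Lrp6, beta-catenin (Ctnnb1), and 2 genes that report or carry out the nuclear response (Axin2 and Lef1). They were chosen by gene name, and all 10 were found once each among the 54551 genes deposited for every library. The ovaries came from C57BL/6 mice on postnatal day 21 that had received 5 IU of PMSG for 48 h, which drives follicle growth, and then 5 IU of hCG for 6 h, a hormone that acts on the LH receptor and triggers ovulation. There were 3 libraries labelled wild type and 3 labelled Gm12840-/-, and both groups received the same hormones. Below, wild type 1 to 3 and knockout 1 to 3 name libraries by these labels. Gm12840 is a gene for a long noncoding RNA. Neither the deleted stretch, the cells it was deleted in, nor the animal behind each library is given in the labels, so each p-value covers only library-to-library spread, which may be technical.

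WNT ligands are secreted lipid-modified proteins that bind a Frizzled receptor together with the co-receptor LRP5 or LRP6 on the receiving cell. Binding blocks the destruction complex, built on the AXIN scaffolds, that otherwise marks beta-catenin for breakdown. Beta-catenin then enters the nucleus and activates genes through TCF and LEF factors, while secreted Frizzled-related proteins hold WNT ligands away from receptors. In the ovary, WNT4 is known for its part in female gonad development and follicle growth, and SFRP4 is known as a gene of ovulatory follicles and corpora lutea.

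Recovered depth ran from 16392098 to 19465847 reads per library. Values are in FPKM, reads per length of gene and size of library, where the size is the authors' own library total. Genes were compared on this scale, which depends on the deposited gene length. That length was 4194 nt for Wnt4, equal to its longest GENCODE M21 transcript. It was 13672 against 9368 nt for Lrp6 and 8788 against 3656 nt for Lef1, which limits comparisons between genes. Gm12840 itself ranged over 0.365 to 1.83 FPKM under the wild type label and 0.426 to 1.45 FPKM under the knockout label, so the targeted gene was not lower by label and every direction below rests on the labels. The share of reads from mitochondrially encoded genes was 2.08%, 1.52% and 4.19% in wild type 3, knockout 1 and knockout 2, and 0.146% to 0.311% in the other libraries. The leading principal component (83.3% of the variance) separated the same libraries, with positive scores in wild type 3, knockout 1 and knockout 2. Both labels were thus represented on each side of this split. Granulosa markers were high in sum, with Inha, the inhibin alpha subunit, between 3973 and 10808 FPKM. Foxl2, Fshr and Esr2 were each over 1 FPKM in at least 1 library.

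The 10 genes spanned a wide range of levels. Sfrp4 was the most abundant, with a mean of 610 FPKM over the 6 libraries, and ranked between 36 and 134 among 22058 protein-coding genes. Ctnnb1 followed at 60.7 FPKM, then Fzd1 at 32.6, Wnt4 at 27.6, Lrp6 at 9.67 and Lrp5 at 7.60 FPKM. Fzd7 stood at 5.95, Fzd4 at 1.52, Axin2 at 1.00 and Lef1 at 0.0802 FPKM. In 4 of the 9 pairs of neighbours in this order the ranges over libraries did not overlap: Sfrp4 over Ctnnb1, Wnt4 over Lrp6, Fzd7 over Fzd4, and Axin2 over Lef1. The ranges of the remaining 5 pairs overlapped. Fzd1 was above Wnt4 in 3 of 6 libraries, and Lrp5 was above Fzd7 in 4 of 6, so the order of these neighbours was not settled.

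**Figure D1:**
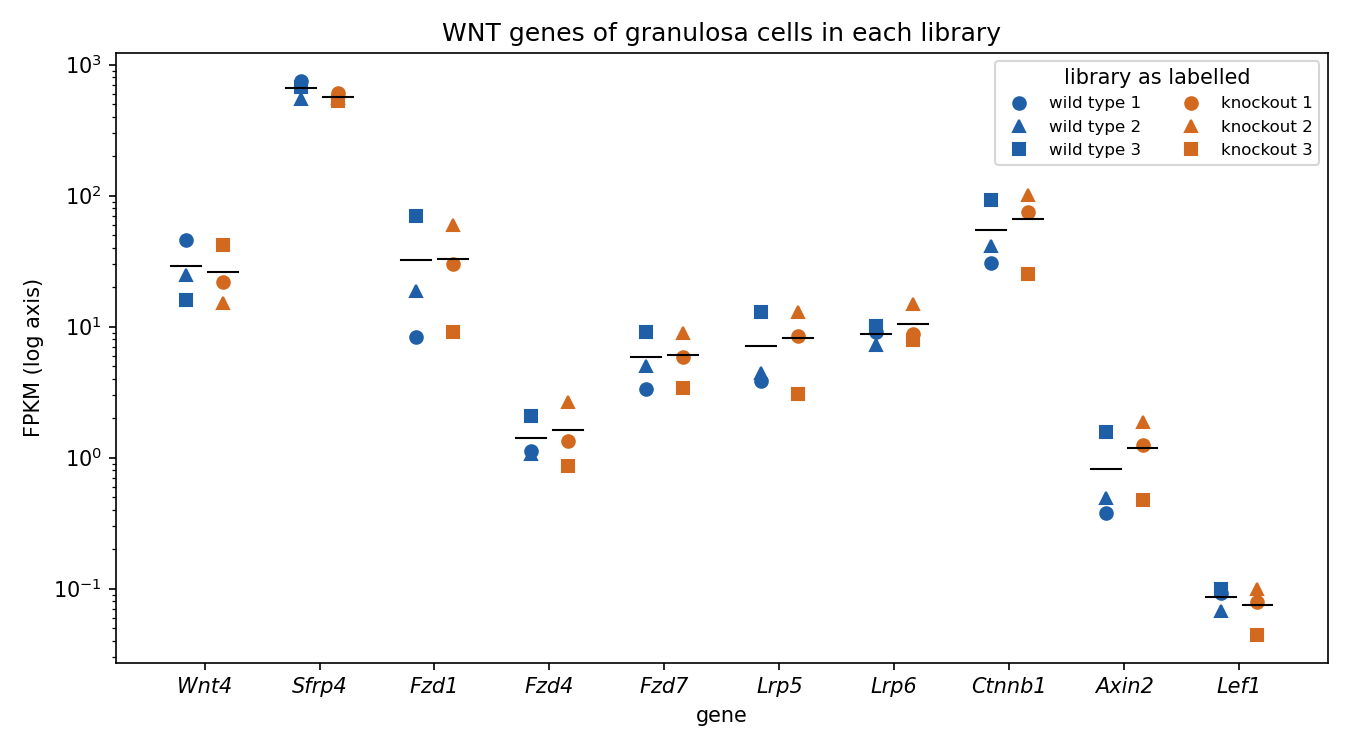
Level of each of the 10 WNT genes in FPKM on a log axis, with 1 point per library (blue, labelled wild type; orange, labelled knockout) and a black line at each group mean (n = 3 each). Sfrp4 sits above 525 FPKM in every library, Lef1 sits under 0.1, and the points of both labels overlap for all 10 genes.

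A stretch of sequence upstream of Wnt4, Fzd1 and Axin2 is shown. Fzd1 was highest and Wnt4 lowest in wild type 3, knockout 1 and knockout 2, and Axin2 had the same highest libraries as Fzd1. RefSeq windows on GRCm38.p6, the assembly known as mm10, were matched for 7 of the 10 genes. The printed stretches end before both the RefSeq start and the start of the gene in the deposited tables. They are chr4:137277385-137277488 on the plus strand for Wnt4, chr5:4758217-4758466 on the minus strand for Fzd1, and chr11:108920099-108920348 on the plus strand for Axin2. The Fzd1 stretch stops short of the deposited start of that gene, at 4758035, and the bases between are not shown. Capitals mark GGGCGG, the core letters of a GC box, or its reverse complement CCGCCC.
Wnt4: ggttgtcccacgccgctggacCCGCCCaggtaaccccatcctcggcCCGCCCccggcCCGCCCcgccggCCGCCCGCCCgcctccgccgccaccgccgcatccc
Fzd1: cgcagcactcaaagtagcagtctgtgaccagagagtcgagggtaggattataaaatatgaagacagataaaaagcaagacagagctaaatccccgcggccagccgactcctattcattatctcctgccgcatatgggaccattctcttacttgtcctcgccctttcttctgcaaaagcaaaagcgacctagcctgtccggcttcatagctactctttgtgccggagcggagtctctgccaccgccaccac
Axin2: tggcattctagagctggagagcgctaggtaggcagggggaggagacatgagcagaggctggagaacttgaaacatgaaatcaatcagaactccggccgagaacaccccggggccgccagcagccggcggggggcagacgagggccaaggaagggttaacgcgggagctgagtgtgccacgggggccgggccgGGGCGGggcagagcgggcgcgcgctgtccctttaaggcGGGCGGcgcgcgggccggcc
The Wnt4 stretch of 104 bases held 5 matches, 2 of them overlapping by shared letters, the Axin2 stretch of 250 bases held 2, and the Fzd1 stretch of 250 bases held 0. Over windows of 300 bases, GGGCGG on either strand occurred in 35.63% of 32817 promoter windows. CTTTGAT and CTTTGAA, letters that TCF and LEF factors are known to bind, were searched on both strands in the same way. They were found in none of the 11 windows of the 7 genes (Wnt4, Fzd1, Fzd4, Fzd7, Ctnnb1, Axin2 and Lef1), against 3.73% and 5.14% of all windows. TGACGTCA, the cAMP response element, and CAAGGTCA, letters bound by steroidogenic factor 1 and its relatives, were also in none of the 11, against 1.79% and 1.56%. These are matches of letters within a short window and say nothing about binding.

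Wnt4 was the leading WNT ligand transcript. It stood at 46.0, 24.6 and 16.04 FPKM in wild type 1 to 3, and at 21.8, 15.2 and 41.7 FPKM in knockout 1 to 3. Wild type 1 and knockout 3 were high, wild type 3 and knockout 2 were low, and the groups overlapped. Wnt4 (ENSMUSG00000036856) lies on chromosome 4 from 137277489 to 137299726 in mm10, on the plus strand. Of the summed FPKM of 19 WNT ligand genes, Wnt4 made up 54.1% to 67.0% in every library. Wnt11 took 8.04% to 21.0% and Wnt6 took 6.97% to 14.1%. Wnt9b was listed at 0 in all 6 libraries. Of the transcript stretches of 50 bases of Wnt4, 4.33% also occurred in transcripts of other genes, so a small part of its reads could be shared.

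Sfrp4, which encodes a secreted protein with a Frizzled-like domain, was both the most abundant gene and the steadiest of those tested. It stood at 753, 547 and 677 FPKM in wild type 1 to 3, and at 606, 554 and 525 FPKM in knockout 1 to 3. Its highest library exceeded its lowest by 1.43 times, and the groups overlapped. These values rest on 33794 to 61772 reads per library, so counting error is small beside the difference between libraries. Its SD over the 6 libraries was 0.20 on the log2(FPKM + 1) scale, lower than that of most tested genes, whose median SD was 0.38. Of the summed FPKM of Sfrp1, Sfrp2, Sfrp4, Sfrp5 and Frzb, the 5 genes of this inhibitor family, Sfrp4 took 97.8% to 98.8%. Sfrp2, the next of them, stood between 3.82 and 11.6 FPKM. Sfrp4 (ENSMUSG00000021319) lies on chromosome 13 from 19623104 to 19632994 on the plus strand.

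The 3 Frizzled receptors shared the same highest libraries but varied over different ranges. Fzd1 stood at 8.39, 18.8 and 69.9 FPKM in wild type 1 to 3, and at 29.99, 59.5 and 9.16 FPKM in knockout 1 to 3. Its highest library exceeded its lowest by 8.33 times, and its SD of 1.25 on the log2(FPKM + 1) scale was above that of 98.8% of tested genes. Wild type 3 and knockout 2 were high and wild type 1 and knockout 3 low, the reverse of Wnt4. Fzd7 stood at 3.31, 5.04 and 9.17 FPKM against 5.89, 8.93 and 3.37 FPKM, and Fzd4 at 1.13, 1.07 and 2.07 FPKM against 1.34, 2.64 and 0.870 FPKM. For both, as for Fzd1, the 3 highest libraries were wild type 3, knockout 1 and knockout 2, and the labelled groups overlapped. Fzd4 rests on 90 to 324 reads per library. FZD1 and FZD7 are close relatives, but 0% of the stretches of 50 bases of either transcript set occurred in another gene.

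Among all 10 Frizzled genes, the make-up of the receptor pool differed between libraries. Fzd1 took 23.8%, 36.3% and 59.6% of their summed FPKM in wild type 1 to 3, and 42.5%, 56.7% and 26.9% in knockout 1 to 3. Fzd2, another close relative of Fzd1, took 31.8%, 23.5% and 9.55% against 13.2%, 7.99% and 29.9%. Fzd2 thus led over Fzd1 in wild type 1 and knockout 3 and followed it in the other 4 libraries. The summed FPKM of the family ran from 34.0 in knockout 3 to 117 in wild type 3. Fzd7 kept a share of 7.82% to 9.91% and Fzd4 of 1.76% to 3.21%. Fzd8, which is no member of the group of 10, took 12.5% to 24.4%.

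**Figure D2:**
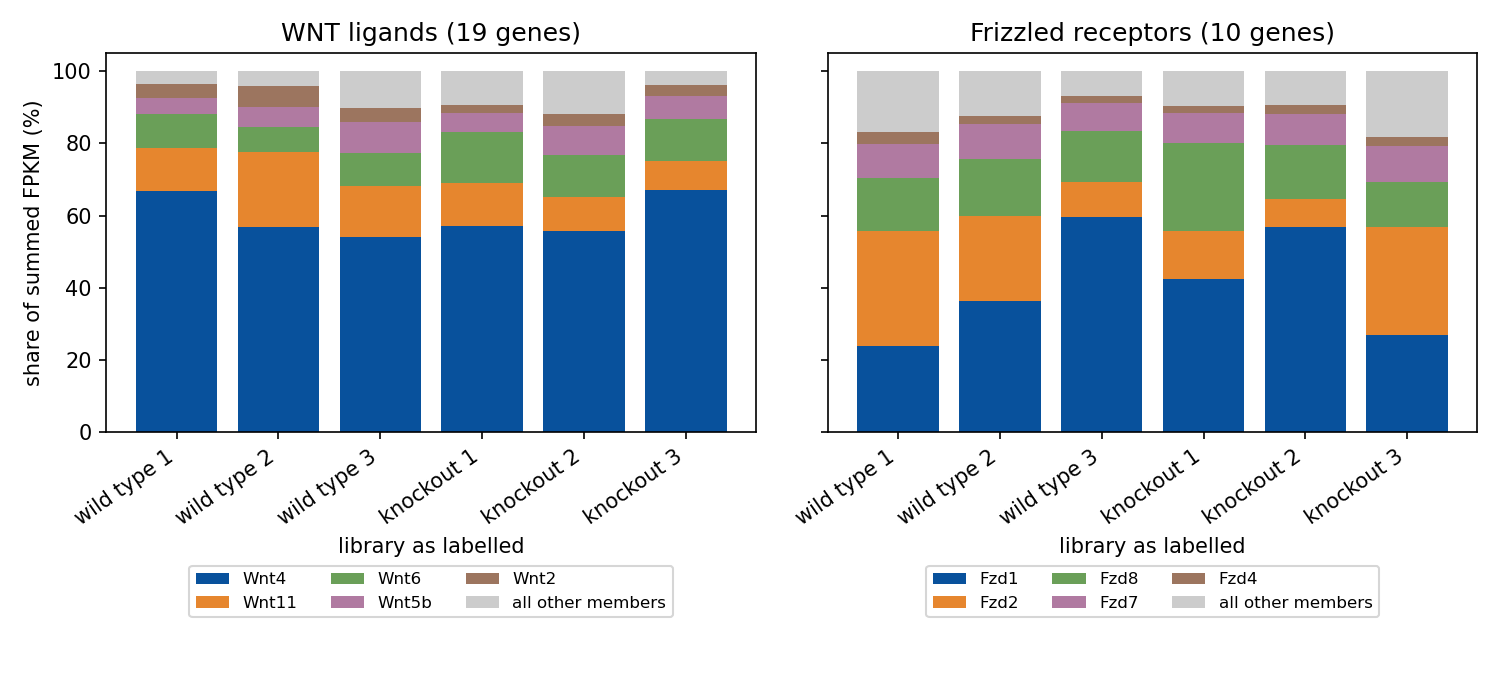
Share of the summed FPKM (percent) of 19 WNT ligand genes (left) and 10 Frizzled genes (right) in each library, with the 5 genes named in each legend as stacked bars and all remaining genes in grey. Wnt4 keeps 54.1% to 67.0% of the ligands in every library, while Fzd1 runs from 23.8% to 59.6% of the receptors.

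The co-receptors Lrp5 and Lrp6 differed in how far they varied. Lrp5 stood at 3.86, 4.45 and 12.9 FPKM in wild type 1 to 3, and at 8.52, 12.8 and 3.08 FPKM in knockout 1 to 3. Lrp6 stood at 9.09, 7.26 and 10.1 FPKM against 8.84, 14.8 and 7.90 FPKM. Lrp5 spanned 4.19 times and Lrp6 2.04 times from the lowest to the highest library, and for both the labelled groups overlapped. Lrp6 was above Lrp5 in 5 of 6 libraries, the exception being wild type 3. This order rests on deposited lengths of 13672 nt for Lrp6 and 9738 nt for Lrp5, against longest transcripts of 9368 and 8893 nt. Lrp5 made up 28.0% to 56.0% of the summed FPKM of the pair.

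Beta-catenin and its feedback target Axin2 followed the receptors. Ctnnb1 stood at 30.7, 41.2 and 92.6 FPKM in wild type 1 to 3, and at 74.5, 100 and 25.1 FPKM in knockout 1 to 3. Axin2, a scaffold of the destruction complex whose transcription WNT signalling is known to raise, stood at 0.379, 0.494 and 1.58 FPKM against 1.24, 1.86 and 0.472 FPKM. Both were highest in wild type 3, knockout 1 and knockout 2, and the groups overlapped. The Axin2 values rest on 31 to 190 reads per library, and the exact 95% Poisson interval of the lowest, 21.1 to 44.0 reads, lay below that of the highest, 164 to 219. Axin1, the constitutive scaffold, supplied most of the AXIN transcript, and Axin2 made up 2.13% to 9.02% of the summed FPKM of both. Axin2 (ENSMUSG00000000142) lies on chromosome 11 from 108920349 to 108950783 on the plus strand. Of the transcript stretches of 50 bases of Ctnnb1, 12.3% occurred also in Ulk4, which overlaps it on the opposite strand, and since the kit does not mark strand the reads of this overlap cannot be told apart. Ulk4 itself stood between 0.212 and 0.372 FPKM. Gm11670, which overlaps Axin2 on the opposite strand, was listed at 0 in 5 of 6 libraries.

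Lef1, a nuclear partner of beta-catenin, was barely detected. It had 12, 10 and 19 reads in wild type 1 to 3, and 13, 16 and 6 reads in knockout 1 to 3. Of the transcript stretches of 50 bases of Lef1, 13.7% also occurred in transcripts of other genes, so some of these few reads could be shared. The exact Poisson intervals of the lowest and the highest read count, 2.20 to 13.1 and 11.4 to 29.7 reads, overlapped. Such overlap is no test of a difference, and these reads were not scaled to library size. No difference between libraries is therefore read from Lef1 at this depth. Other factors of the same family supplied the transcript: Tcf7 made up 49.0% to 59.3% and Tcf7l1 29.0% to 39.6% of the summed FPKM of Lef1, Tcf7, Tcf7l1 and Tcf7l2, and Lef1 made up 0.308% to 0.681%.

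Most of the 10 genes followed the main difference between libraries. In 6 of the 9 genes that passed the filter on low values, which asks for an FPKM over 1 in at least 3 libraries, the highest values were in wild type 3, knockout 1 and knockout 2. These were Fzd1, Fzd4, Fzd7, Lrp5, Ctnnb1 and Axin2. The same libraries were highest in 31.4% of all 12495 tested genes. Wnt4 had its lowest values in these libraries, as did 34.9% of tested genes. Sfrp4 and Lrp6 did neither. Axin2 passed the filter through exactly these 3 libraries, so the filter alone set its place in this count. Without genes that passed in this way, the count was 5 of 8 members, against 29.3% of 12125 genes. Lef1 did not pass the filter.

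**Figure D3:**
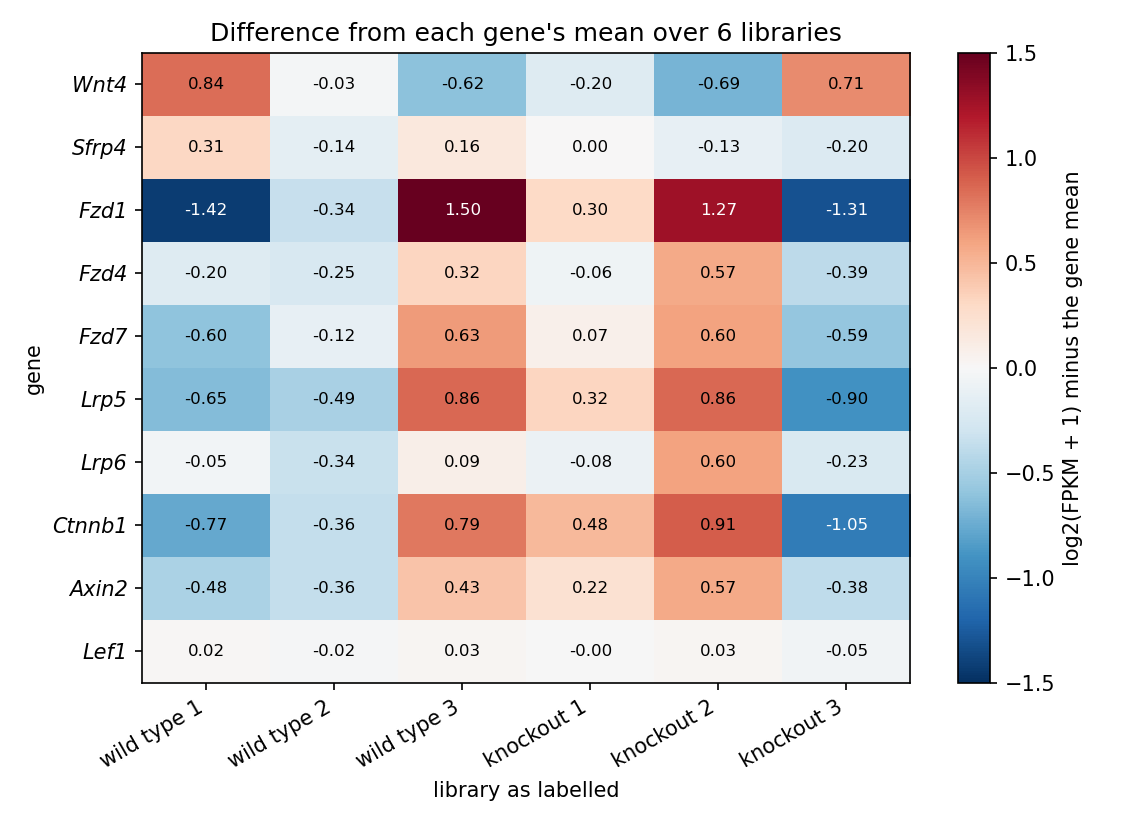
Difference of log2(FPKM + 1) from the gene's mean over the 6 libraries, for each of the 10 genes (rows) and each library (columns); red is above and blue below the mean. Fzd1 runs from -1.42 in wild type 1 to 1.498 in wild type 3, Wnt4 runs the other way, and Sfrp4 stays between -0.20 and 0.31.

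Gene length and base composition were read for Wnt4, Fzd1 and Sfrp4. The deposited gene lengths were 4194 nt for Wnt4, 4197 nt for Fzd1 and 4179 nt for Sfrp4. The GC content of their longest GENCODE M21 transcript was 55.89% for Wnt4, 55.66% for Fzd1 and 44.43% for Sfrp4. Over all tested genes, longer genes were relatively higher in wild type 3, knockout 1 and knockout 2, with slopes of 0.105, 0.0387 and 0.194 in log2 units per doubling of length, and lower in the other 3, at -0.132 to -0.0840. In every library the slope had the same sign as the score on the leading principal component. A fit with this slope as a covariate therefore cannot tell length from the main difference between libraries. In that fit the estimates of Wnt4 and Fzd1 changed sign. The part of length in the values of the 10 genes was not tested.

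Markers of other ovarian cells also differed between libraries. Those of the surface epithelium, with 4 of 5 markers over 1 FPKM in at least 1 library and Lrrn4 below it in all, summed to 95.3, 51.6 and 33.8 FPKM in wild type 1 to 3, and to 33.3, 20.7 and 85.9 FPKM in knockout 1 to 3. This sum was highest in wild type 1 and knockout 3, as Wnt4 was, and lowest in wild type 3, knockout 1 and knockout 2. The latter held also for Wnt4, for 34.9% of tested genes, and for the oocyte and granulosa sums. Krt19 made up most of the surface epithelium sum in wild type 1 and knockout 3, at 58.2 and 54.1 FPKM. Msln had the same highest and lowest libraries. Upk3b did not, being higher in wild type 3 (6.17 FPKM) than in wild type 2 (5.08 FPKM). Oocyte markers, all 8 over 1 FPKM in at least 1 library, summed to 251 to 420 FPKM under the wild type label. Under the knockout label they summed to 222 to 368 FPKM, and the sum was again highest in wild type 1. The 10 granulosa markers, all over 1 FPKM in at least 1 library, summed to 6443 to 12197 FPKM and 4685 to 9344 FPKM. Their sum was also highest in wild type 1. Inha alone stood at 10808 FPKM in that library, so this sum mostly follows Inha. Endothelial markers, 6 of 7 over 1 FPKM with Tek below, summed to 7.06 to 16.4 FPKM and 14.2 to 19.6 FPKM. Their sum was highest in wild type 3, knockout 1 and knockout 2, as were Cdh5 and Kdr. Eng was highest in knockout 3, at 7.54 FPKM, and lower in wild type 3 (3.88 FPKM) than in wild type 1 (4.21 FPKM). This sum therefore does not describe each endothelial marker. Stromal, pericyte and smooth muscle markers, 11 of 12 with Rgs5 below, summed to 62.5 to 120 FPKM and 89.8 to 114 FPKM. Within this list Acta2 was highest in wild type 1, at 83.2 FPKM. Col3a1 and Col1a1 were highest in knockout 1, at 24.4 and 14.6 FPKM, so the sum does not describe each gene. Leukocyte markers, 4 of 7 with Ptprc, Adgre1 and Itgam below, summed to 34.2 to 57.3 FPKM and 33.9 to 52.9 FPKM. None of the markers of these lists was at 0 in every library. The part of these cells in the values of the 10 genes was not tested, and in such bulk samples fewer cells of a type and less RNA per cell cannot be told apart.

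The comparison the design implies is knockout against wild type. None of the 10 genes differed by label beyond the spread between libraries. In the limma fit across 12495 genes, 0 of the 9 tested members were called at an adjusted p under 0.05, and 0 had an unadjusted p under 0.05. Over all genes limma called 0, which is 0%, and 0.728% had an unadjusted p under 0.05. The labelled groups did not overlap in 0 of the 9 members, against 3.53% of all tested genes. The median log2 fold change of the 9 members was 0.18, with 7 positive and 2 negative, while over all tested genes the median was -0.035 and 55% were negative. This split rested on single libraries: without knockout 2 it was 2 positive and 7 negative (median -0.19), and without wild type 1 it was 4 positive and 5 negative (median -0.098). With the length slope of each library as a covariate it was 3 positive and 6 negative (median -0.23).

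The intervals show what the design could resolve. For Wnt4 the log2 fold change, knockout minus wild type on the log2(FPKM + 1) scale, was -0.13 and its 95% interval ran from -1.31 to 1.06 (28.9 ± 15.4 against 26.2 ± 13.8 FPKM, SD, n = 3 each, wild type first, adjusted p = 0.993 by limma). For Sfrp4 it was -0.22 with an interval of -1.07 to 0.63 (659 ± 104 against 562 ± 41.0 FPKM, adjusted p = 0.993 by limma). For Fzd1 it was 0.18 with the widest interval of the 10 genes, -1.97 to 2.32 (32.4 ± 32.9 against 32.9 ± 25.3 FPKM, adjusted p = 0.993 by limma). Changes of 2-fold in either direction thus lay within the intervals of Wnt4 and Fzd1, and a 2-fold fall lay within that of Sfrp4.

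The remaining members gave estimates between -0.016 and 0.28. Ctnnb1 stood at 54.8 ± 33.1 FPKM by the wild type label and 66.7 ± 38.2 FPKM by the knockout label, with a log2 fold change of 0.23 (-1.26 to 1.71). Axin2 stood at 0.818 ± 0.663 and 1.19 ± 0.694 FPKM, with 0.28 (-0.56 to 1.12). The Axin2 estimate was 0.55 with a pseudocount of 0.1 and 0.58 by limma-voom, neither called. Lrp5 had 0.18 (-1.19 to 1.55) and Lrp6 0.19 (-0.48 to 0.87). Fzd4 had 0.080 (-0.66 to 0.82) and Fzd7 0.058 (-0.94 to 1.06), and the adjusted p of these 6 genes was 0.993 by limma. Lef1, tested in the fit without a filter, had -0.016 (-0.10 to 0.072, adjusted p = 0.958 by limma), a scale on which so low a gene cannot show a large change.

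**Figure D4:**
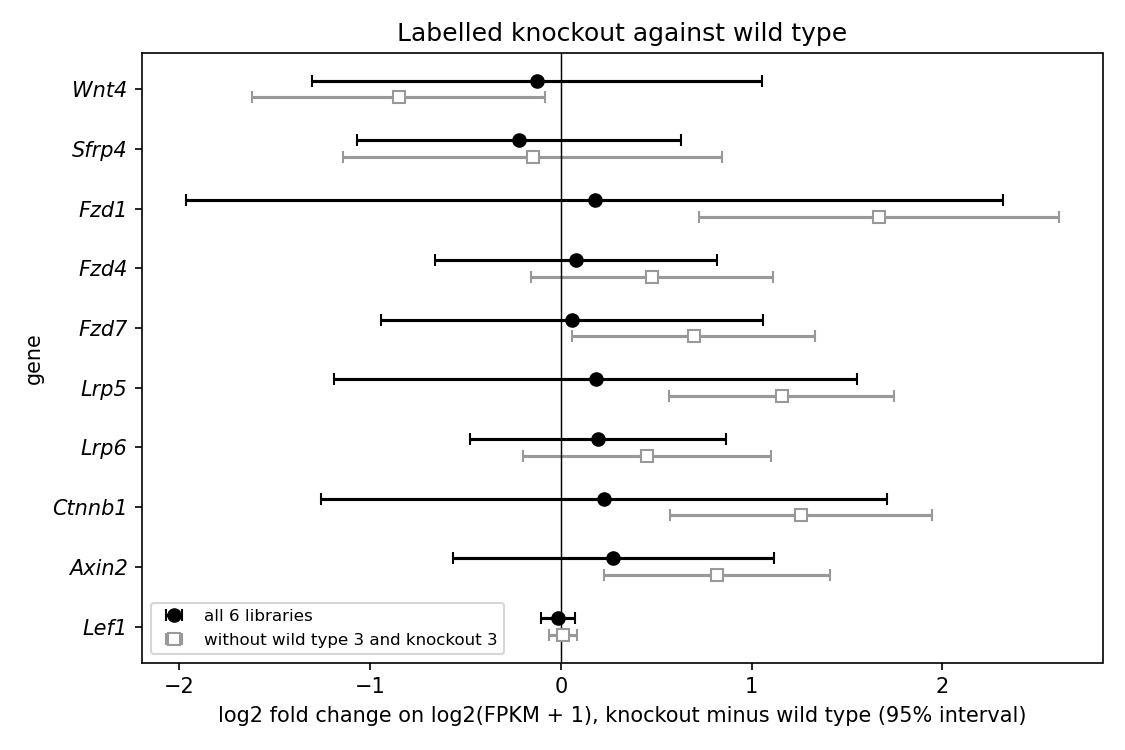
log2 fold change on log2(FPKM + 1), knockout minus wild type, with the 95% interval from limma for each of the 10 genes; black points use all 6 libraries and open grey squares leave out wild type 3 and knockout 3. Every black interval includes 0, and the grey squares of all genes but Wnt4 and Sfrp4 lie to the right of 0, with those of Fzd1, Fzd7, Lrp5, Ctnnb1 and Axin2 and, to the left, Wnt4 having intervals that exclude 0.

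Without wild type 3 and knockout 3, an alternative chosen after results of these data were known, limma called 4 of the 9 members. They were Fzd1 (1.67, adjusted p = 0.0263), Lrp5 (1.16, adjusted p = 0.0223), Ctnnb1 (1.26, adjusted p = 0.0242) and Axin2 (0.82, adjusted p = 0.0462), all higher under the knockout label. That fit called 27.6% of all genes. Among the 4 libraries kept, Axin2 exceeded 1 FPKM only in knockout 1 and knockout 2, so it was tested through the group where it was high and its call supports nothing. Fzd7 (0.70, interval 0.061 to 1.33, adjusted p = 0.0887 by limma) and Wnt4 (-0.85, interval -1.62 to -0.081, adjusted p = 0.0866 by limma) were not called. The 4 libraries are divided by label in the same way as by the first principal component and by the mitochondrial share, so label and main difference between libraries cannot be told apart in it. In the fit of all 6 libraries with the length slope as a covariate, 0 members were called, against 0.008% of all genes.

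Ratios within a library were compared because they do not depend on how libraries are scaled to each other. The ratio of Sfrp4 to Wnt4, inhibitor to ligand, was 16.4, 22.3 and 42.2 in wild type 1 to 3, and 27.8, 36.5 and 12.6 in knockout 1 to 3. On the log2 scale the means were 4.64 ± 0.70 and 4.55 ± 0.80 (SD, n = 3 each, exact two-sided permutation p = 0.9). The ratio of Lrp6 to Lrp5 was 2.36, 1.63 and 0.785 against 1.04, 1.16 and 2.57, and that of Fzd1 to Fzd4 was 7.41, 17.6 and 33.9 against 22.3, 22.5 and 10.5. The exact permutation p was 1 for each of these, and 1 for all 3 ratios after Benjamini-Hochberg adjustment, where 3 against 3 gives no p under 0.1. In each ratio the labelled groups overlapped.

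Other genes of the pathway were read from the same fit. Of 92 listed genes 56 passed the filter, and limma called 0 of them, with 0 at an unadjusted p under 0.05. The log2 fold change was above 0 in 39 and below 0 in 17 of the 56, at a median of 0.11. Over all tested genes 55% were negative, at a median of -0.035. Whether this split of the 56 rested on single libraries, as that of the members did, was not tested. The groups did not overlap in 2, Fzd2 and Lgr6, which is close to the 3.53% of all tested genes; both were named after their values were seen. Fzd2 stood at 11.2, 12.2 and 11.2 FPKM against 9.28, 8.38 and 10.2 FPKM, and Lgr6, a receptor for R-spondins, at 1.33, 0.535 and 1.08 FPKM against 1.56, 1.84 and 1.52 FPKM. In 28 of the 56 the highest libraries were wild type 3, knockout 1 and knockout 2, and in 4 these were the lowest, against 31.4% and 34.9% of all tested genes. Of these 28, 2 passed the filter only through those libraries; without such genes the counts were 26 and 4 of 54, against 29.3% and 36% of all genes.

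By role, genes needed to send, receive and pass on the signal were present. Wls, which carries WNT proteins to the cell surface, stood between 4.46 and 9.08 FPKM, and Porcn, which attaches their lipid, between 2.16 and 3.12 FPKM. Lgr4, which with R-spondins keeps Frizzled receptors at the surface, stood at 10.5 to 28.3 FPKM, and Rspo2 at 1.32 to 3.23 FPKM. Ryk, a WNT co-receptor, was steady at 18.4 to 24.5 FPKM, while Fzd8 stood at 4.25 to 17.2 FPKM. Among the cytoplasmic kinases listed for the pathway, Csnk1d stood at 27.8 to 40.3, Csnk1a1 at 23.3 to 31.1 and Gsk3a at 14.01 to 33.02 FPKM. Among nuclear cofactors, Pygo2 stood at 23.8 to 45.5 and the corepressor Tle1 at 18.2 to 28.7 FPKM. Ctnna1 and Cdh2, which bind beta-catenin at cell junctions, stood at 65.6 to 84.0 and 21.6 to 37.9 FPKM. Of the targets listed beside Axin2, Myc stood at 10.02 to 23.7 FPKM, Cd44 at 2.35 to 3.67 FPKM and Nkd1, a feedback inhibitor, at 1.73 to 2.70 FPKM. Dkk3 was at 2.89 to 4.92 FPKM and Kremen1 at 2.85 to 5.24 FPKM among the inhibitors.

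The tested genes with the most similar profiles were found by the mean absolute difference of centred log2(FPKM + 1) values over the 6 libraries. For Wnt4 they were Grrp1, at 0.053, Tmem176b, at 0.065, and AC134329.1, at 0.067. For Fzd1 they were Lrrc41, at 0.17, Atxn2l, at 0.17, and Kif20a, at 0.18. For Sfrp4 they were L3hypdh, at 0.043, Htra3, at 0.059, and Nadsyn1, at 0.063. These likenesses describe 6 libraries that share the main difference given above.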

How the data were processed

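RNA of 6 granulosa cell libraries, made with a TruSeq kit (per the labels' protocols), was read from tables of FPKM values that the authors deposited, with gene coordinates and lengths. Per the submitters' processing notes, alignment tools and builds include HISAT2 2.0.5 and mm10. How reads were counted, and with which annotation, is not given in the sources used here, and the scaling is not stated there either. FPKM times gene length gave whole multiples of 1 step per library in 99.978% to 99.996% of values, within 0.01 reads, so reads were recovered. The authors' library totals were 0.894 to 1.12 times the recovered reads. In every library these totals were proportional to the median-of-ratios factor of the recovered reads, so the deposited values already carried this scaling. Same-label libraries were not duplicates (chi-square per degree of freedom from 36.7 to 392 over genes with at least 20 reads in a pair).

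Genes above 1 FPKM in 3 or more libraries were tested by limma 3.58.1 in R 4.3.3 on log2(FPKM + 1), with genotype as the only term, a trend in the prior variance and Benjamini-Hochberg adjustment over all genes at 0.05. Low genes change less on this scale than in FPKM. Ratios were tested by exact permutation in SciPy 1.17.1. Intervals on reads are exact Poisson intervals at 95% and cover counting error only. The script was tested on simulated data. The 10 genes, the lists and the rule for named genes were chosen with earlier results of these data known. That rule took the 10 genes, Gm12840, the 3 most abundant genes of each pathway list, markers, and the 3 most similar profiles of Wnt4, Fzd1 and Sfrp4. Further genes named were chosen after their values were seen. Alternatives were pseudocounts, filters, scalings, limma-voom, the replicate block, protein-coding genes, and leaving out libraries. The length slope was added later. Figures were drawn with matplotlib 3.10.9. Of the marker lists, 1 is not reported here.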

Additional observations from a re-analysis of the deposited data

How the results depend on the processing

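limma called 0 genes, 0 members and 0 other pathway genes under pseudocounts of 0.1 and 0.5, both other filters, library totals, limma-voom, protein-coding genes and each single library left out. The fit with median-of-ratios factors repeated the main fit, because the deposited values already carried this scaling. It was therefore no separate check. Estimates still moved: Axin2 from 0.28 to 0.55 with a pseudocount of 0.1 and 0.58 by limma-voom, and with library totals Wnt4 from -0.13 to -0.042, Fzd4 from 0.080 to 0.13, Fzd7 from 0.058 to 0.13 and Sfrp4 from -0.22 to -0.13. With the replicate block it also called 0 genes, 0 members and 0 other pathway genes. Deviations of same-numbered libraries correlated at -0.422, -0.672 and -0.894, and no library (0 of 6) had its best match in its own number, so the numbers were not taken to pair them. With wild type 3 and knockout 3 both left out, 3451 of 12495 genes (27.6%) were called, and Lef1 turned to 0.013. The calls included 4 of 9 members, among them Axin2 with the limit given above, and 11 of 56 other pathway genes. Label and main difference between libraries cannot be told apart in that fit. With the length slope as a covariate 1 gene and 0 members were called. In that fit Wnt4 turned to 0.22, Fzd1 to -0.52, Fzd4 to -0.13, Fzd7 to -0.25, Lrp5 to -0.26 and Ctnnb1 to -0.24, and limma called none of these. The cause was not tested.

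With 1 library left out, the log2 fold change ran from -0.51 to 0.26 for Wnt4, -0.49 to 0.97 for Fzd1, -0.19 to 0.29 for Fzd4, -0.23 to 0.39 for Fzd7, -0.20 to 0.68 for Lrp5, -0.059 to 0.36 for Lrp6, -0.17 to 0.81 for Ctnnb1 and -0.033 to 0.0043 for Lef1. It kept its sign for Sfrp4 (-0.35 to -0.12) and Axin2 (0.058 to 0.56). Leaving out wild type 1 turned Wnt4, Fzd1, Fzd7, Lrp5 and Ctnnb1. Leaving out wild type 2 turned Fzd4 and Lrp5, and knockout 3 turned Lef1. Leaving out knockout 2 turned Wnt4, the 3 Frizzled genes, Lrp5, Lrp6 and Ctnnb1. The log2 difference of the ratios ran from -0.41 to 0.36 for Sfrp4 to Wnt4, -0.43 to 0.36 for Lrp6 to Lrp5 and -0.49 to 0.61 for Fzd1 to Fzd4. The first and second of these turned without wild type 3 or knockout 3, and the last without wild type 1, knockout 1 or knockout 2. Depth limits Lef1, with 6 to 19 reads per library.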
